A study of Mus musculus with 2 samples.

Results

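Of the 55357 genes in the count matrices, 8 were taken by symbol because they encode chemokines and receptors that direct neutrophils: the ligands Cxcl1, Cxcl2, Cxcl3, Cxcl5 and Cxcl15, the receptor Cxcr2, and the ligand and receptor pair Cxcl12 and Cxcr4. All 8 were measured, each in 1 matrix row. They were followed in lungs of female BALB/c mice (written Balb/C in the labels) with orthotopic K7M2 osteosarcoma, a mouse bone tumour line. 1 group received 1V209-Cho-Lip, a liposome that carries a TLR7 agonist, and the other received PBS. Each group was 1 droplet single-cell library made from the pooled lungs of 3 mice, so no spread between mice could be measured and no test was made. An effect of 1V209-Cho-Lip and a difference between the 2 libraries cannot be told apart anywhere in these data.

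CXC chemokines bind G protein-coupled receptors on leukocytes and draw the cells up a gradient. Cxcl1, Cxcl2, Cxcl3 and Cxcl5 act through Cxcr2, which drives neutrophils out of the bone marrow and into inflamed tissue, and Toll-like receptor and interleukin-1 signals induce their transcription through NF-kB. Cxcl12 acts through Cxcr4, which holds neutrophils in the marrow, and lung endothelium and fibroblasts are known sources of Cxcl12.

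Cxcl1, Cxcl2, Cxcl3, Cxcl5 and Cxcl15 lie close together on chromosome 5, from Cxcl5 at chr5:90759360-90761624 to Cxcl2 at chr5:90903871-90905938 (GENCODE vM21, GRCm38, + strand). Cxcr2 and Cxcr4 are on chromosome 1 and Cxcl12 is on chromosome 6. RefSeq promoter windows (GRCm38.p6) were matched for 7 of the 8 genes. Those of Cxcl1, Cxcl2 and Cxcl3 are shown because they hold the same kB element, GGGAATTTCC, and because these members are known to be induced through NF-kB. Each sequence is the + strand from 120 to 30 bases upstream of the transcription start, 5′ to 3′, and the capitals mark the kB element.
Cxcl1, chr5:90891125-90891215: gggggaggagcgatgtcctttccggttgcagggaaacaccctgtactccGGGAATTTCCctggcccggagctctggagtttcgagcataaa
Cxcl2, chr5:90903779-90903869: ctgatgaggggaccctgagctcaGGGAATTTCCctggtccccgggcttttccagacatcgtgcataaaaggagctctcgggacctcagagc
Cxcl3, chr5:90785981-90786071: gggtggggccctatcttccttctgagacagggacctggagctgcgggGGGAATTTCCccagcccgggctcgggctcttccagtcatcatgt
The element begins 71 bases upstream of the start in Cxcl1, 97 in Cxcl2 and 73 in Cxcl3. It was searched on both strands and was found in 28 of 32851 windows of 250 upstream bases (0.0852%), and the looser NF-kB consensus, searched by its usual form, was found in 1281 (3.90%). Neither was found in the windows of Cxcl15, Cxcr2, Cxcr4 or Cxcl12, which says only that these letters are not there.

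The 1V209-Cho-Lip library held 13740 barcodes and 54843992 unique molecular identifiers (UMIs, counted transcripts), and the PBS library held 14622 barcodes and 58156102 UMIs. After filters and removal of called doublets, 12265 cells of the 1V209-Cho-Lip and 12654 of the PBS library remained, at a median depth of 2506 and 2198 UMIs. The 2 libraries have 268 cell barcodes in common. Cells were assigned to 23 classes named "-like" from marker genes, each with at least 50 cells in both libraries. Neutrophil-like cells, in which all 12 neutrophil markers were raised over other cells, made up 4463 cells (36.4%) in the 1V209-Cho-Lip and 1570 (12.4%) in the PBS library. Levels are given as CPM of the summed cells (UMIs scaled so that each sum has the same total), and ratios as 1V209-Cho-Lip over PBS. A ratio of at least 1.5 is called higher and its inverse lower. Bracketed ranges are exact 95% intervals, Poisson for CPM and conditional binomial for ratios, and cover counting error only. CPM of the summed cells cannot tell fewer expressing cells from less RNA per cell, so shares of cells are given beside them.

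Over all kept cells, Cxcl2, Cxcl3 and Cxcr2 were higher with 1V209-Cho-Lip, Cxcl12 was lower, and the other members stayed within the fold. These are 3 of 8 members higher, where 14.0% of all 20415 genes with at least 20 UMIs were, and 1 of 8 lower, where 20.2% of all genes were. Cxcl2 stood at 2592 CPM with 1V209-Cho-Lip and 800.3 CPM with PBS, a ratio of 3.24 (3.20 to 3.28). Cxcr2 reached 315 CPM with 1V209-Cho-Lip and 48.7 CPM with PBS, which is a ratio of 6.46 (6.18 to 6.75). Cxcl3 reached 38.0 CPM with 1V209-Cho-Lip and 13.6 CPM with PBS, which is a ratio of 2.79 (2.54 to 3.06). Neutrophil-like cells held most UMIs of all 3 with 1V209-Cho-Lip, and the share of such cells differed between the libraries, and with the class shares set equal the ratios were 1.13 for Cxcl2, 1.56 for Cxcr2 and 1.15 for Cxcl3. Cxcl12 stood at 77.9 CPM with 1V209-Cho-Lip and 127 CPM with PBS, a ratio of 0.614 (0.59 to 0.64), and with equal class shares its ratio was 0.581. The median gene had a log2 ratio of -0.20 over all cells, -0.15 in neutrophil-like cells, 0.16 in club or secretory-like cells and 0.14 in pericyte-like cells, and within 0.1 of 0 in the other classes; scaled against that shift the whole-library ratio of Cxcl12 was 0.703, within the fold.

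**Figure D1:**
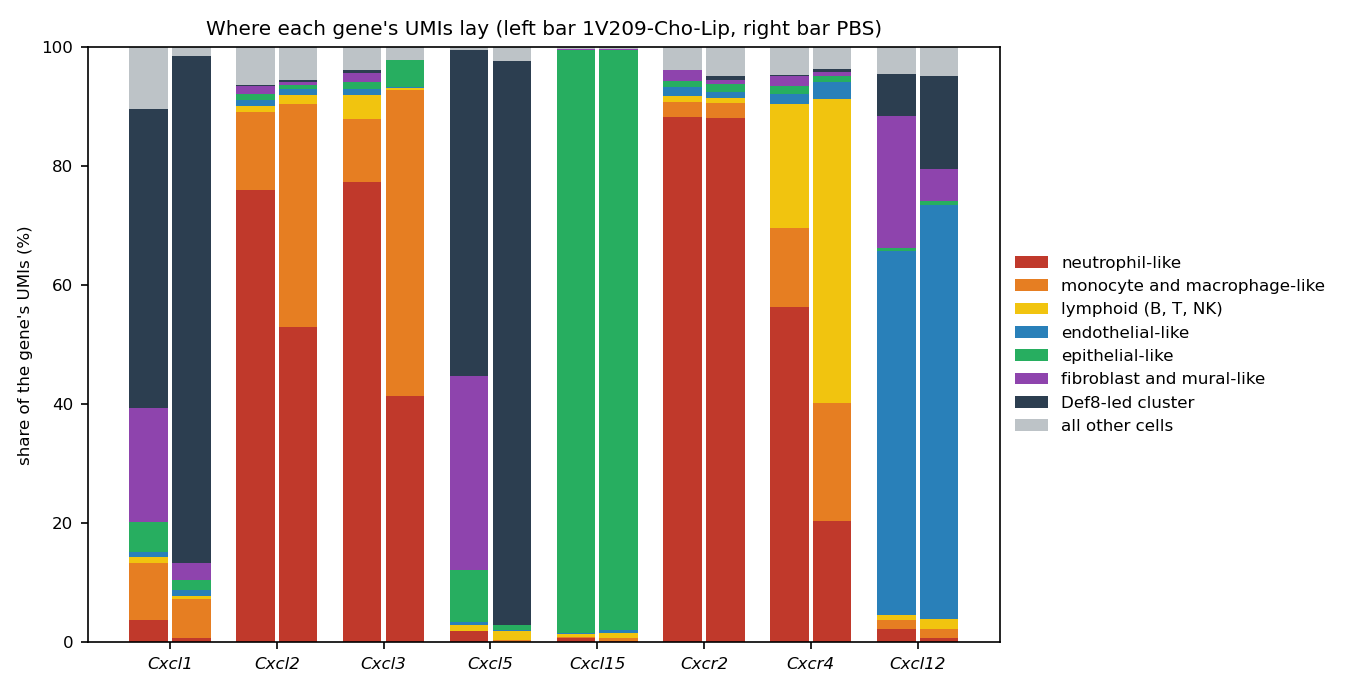
Stacked bars of the share of each member's UMIs (percent, vertical axis) held by groups of cells, with the 1V209-Cho-Lip library in the left and the PBS library in the right bar of each gene. Neutrophil-like cells, here with the granule-rich ones, held 76.0% and 53.0% of Cxcl2 UMIs, and endothelial-like cells held 61.2% and 69.6% of Cxcl12 UMIs; 50.2% and 85.0% of Cxcl1 UMIs lay in a cluster led by Def8.

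Across the 23 classes, 115 of the 184 possible pairs of a member and a class held at least 20 UMIs. Of these, 54 were higher with 1V209-Cho-Lip, 19 were lower and 42 were within the fold. Over all genes and the same classes, 14.7% of measured pairs were higher and 11.7% were lower. Cxcr2 was higher in 19 of 20 classes and Cxcl2 in 16 of 23, whereas Cxcl12 was lower in 10 of 14 and Cxcr4 was within the fold in 16 of 21. Outside endothelial-like cells the lower Cxcl12 calls rested on few counts, from 3 and 19 UMIs in NK-like to 80 and 40 in neutrophil-like cells. Counts of S100a8, a neutrophil marker gene that encodes a calprotectin subunit, were also found in non-neutrophil classes, such as 1189 CPM with 1V209-Cho-Lip and 191 CPM with PBS in AT2-like cells. The amount of each member that would go with those S100a8 counts, at the ratio seen in neutrophil-like cells of the same library, was therefore computed and is called the S100a8-scaled level. After subtraction of it, 22 pairs were higher and 21 lower of the 79 that kept a value. The share of calls that were higher was 51.2% there, against 74.0% over all 115 pairs as measured. These shares cover different pairs, so their difference is not that of subtraction alone. The neutrophil-like pairs dropped out, and Cxcr2 kept a value in 3 of 19 non-neutrophil classes, all 19 of them higher as measured. For Cxcr2, the measured level was at or below the S100a8-scaled level in at least 1 library in 16 of 19 non-neutrophil classes.

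Counts by class, beside the share of all genes of the same class past the fold, were as follows. In T-like cells 4 of 7 measured members were higher and 2 lower, where 12.7% and 4.96% of all genes were. In B-like cells 2 of 6 were higher and 1 lower (12.5% and 6.87% of all genes), and in NK-like cells 2 of 6 were higher and 3 lower (13.4% and 10.9%). In classical monocyte-like cells 2 of 6 were higher and none lower (11.6% and 8.65%). In Car4 capillary-like cells 2 of 6 were higher and 2 lower (13.2% and 8.97%), and in other endothelial-like cells 1 of 3 was higher and 2 lower (18.5% and 15.6%). In venous endothelial-like cells 2 of 5 were higher and none lower (17.6% and 18.7%), and in club or secretory-like cells 2 of 4 were higher and none lower (23.4% and 9.52%). The higher calls in these 8 classes include Cxcl2 or Cxcr2, the members with the highest S100a8-scaled levels.

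**Figure D2:**
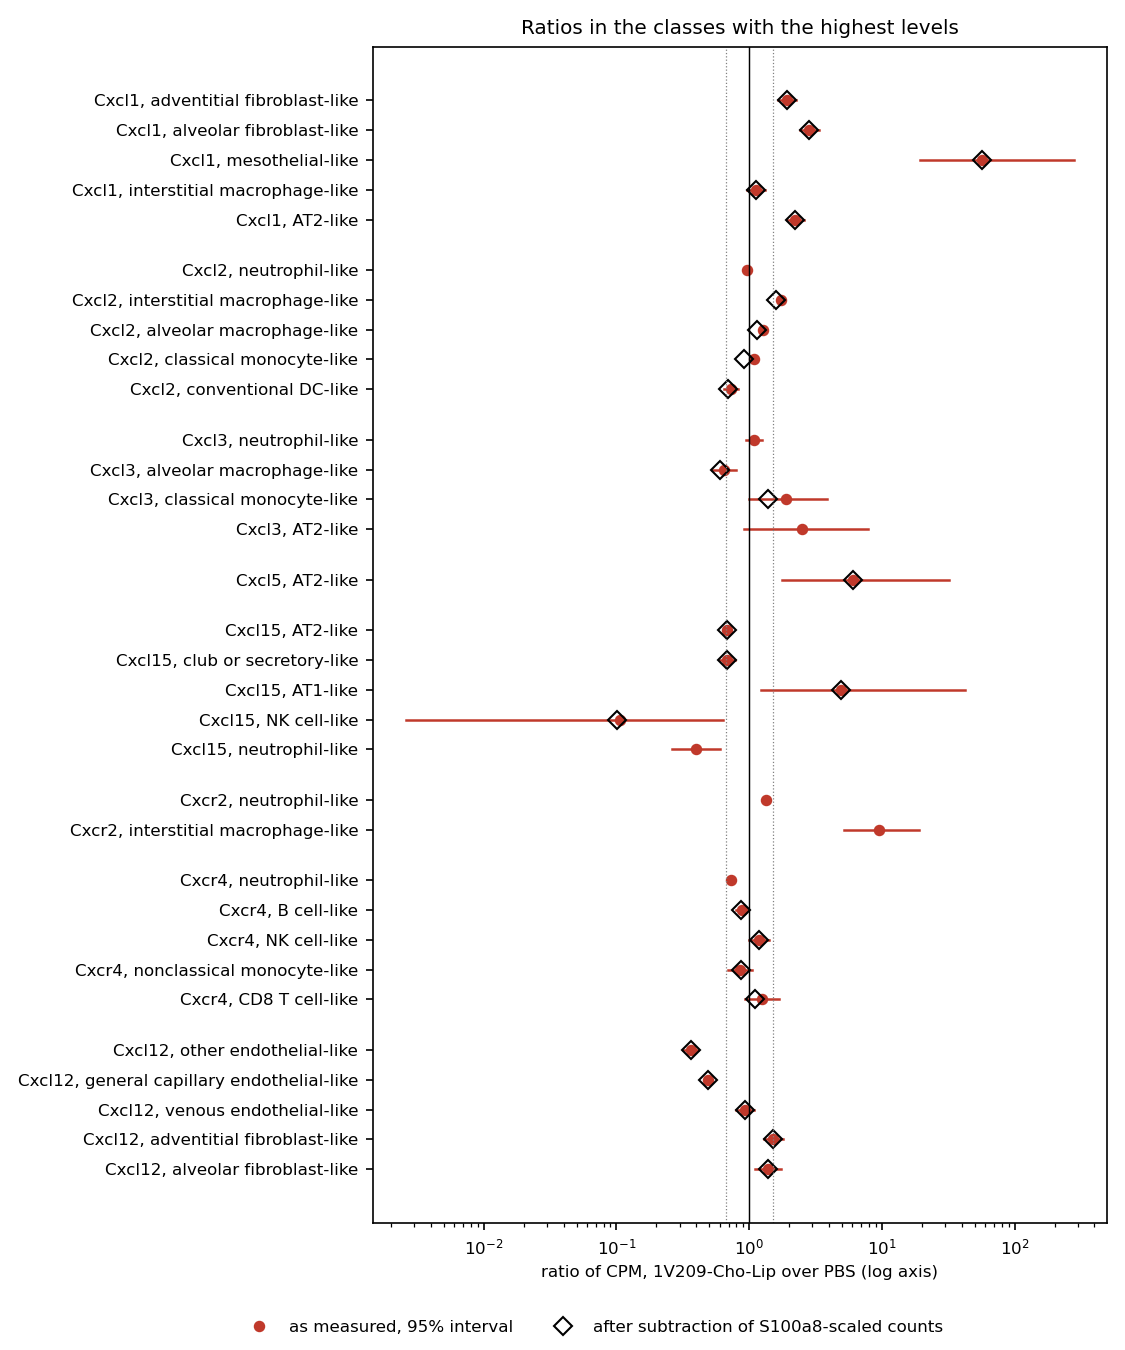
Ratio of CPM, 1V209-Cho-Lip over PBS (log axis), in up to 5 classes with the highest level of each member, for pairs with UMIs in both libraries; points are ratios as measured with 95% counting intervals, open diamonds the ratios after subtraction of S100a8-scaled counts, dotted lines the 1.5-fold limits. Cxcl1 lies past the upper 1.5-fold limit in 4 of 5 classes, Cxcl12 is lower in the general capillary and other endothelial-like classes, and Cxcr4 is within the fold in all 5.

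Cxcl1 encodes a ligand of Cxcr2 that stromal, epithelial and myeloid cells release early in inflammation. It was higher with 1V209-Cho-Lip in the fibroblast-like, mesothelial-like and AT2-like classes and within the fold in interstitial macrophage-like cells, with calls that partly rest on how a class is drawn. With each cell gated on its own markers the ratio was 1.44 in adventitial fibroblast-like and 2.42 in interstitial macrophage-like cells. In adventitial fibroblast-like cells it stood at 1364 CPM (1265 to 1470) with 1V209-Cho-Lip and 709.6 CPM (623 to 805) with PBS, a ratio of 1.92 (1.66 to 2.23). In alveolar fibroblast-like cells it stood at 548 CPM (516 to 581) and 193 CPM (165 to 224), a ratio of 2.84 (2.41 to 3.36). These classes differed in how the transcript was spread. In adventitial fibroblast-like cells 52.9% of 1V209-Cho-Lip cells and 39.2% of PBS cells held a Cxcl1 UMI, or 33.3% and 29.2% with each cell thinned to 1000 UMIs. In alveolar fibroblast-like cells 17.7% and 11.0% did (11.2% and 7.59% thinned), and 1 cell in each library held 426 of the 1110 UMIs with 1V209-Cho-Lip and 56 of the 167 with PBS. Without those 2 cells the ratio was 2.63, and without cells that carry S100a8 or S100a9 it was 1.67. As a background, 2.80% and 1.94% of B-like cells held a Cxcl1 UMI, at a median of 2364 and 1969.5 UMIs per cell, against 2985 and 2702 in alveolar fibroblast-like cells.

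In AT2-like cells, the surfactant-making alveolar epithelium, Cxcl1 stood at 269.5 CPM (248 to 293) with 1V209-Cho-Lip and 121 CPM (106 to 137) with PBS, a ratio of 2.23 (1.92 to 2.60). A UMI was found in 34.5% and 23.4% of AT2-like cells, and in 14.3% and 9.74% after thinning. In mesothelial-like cells, which line the lung surface, Cxcl1 had 295 UMIs over 74 cells with 1V209-Cho-Lip and 3 UMIs over 64 cells with PBS. The ratio was 57.1 (19.4 to 279), whose width comes from the few PBS counts. It was 8.88 with called doublets kept and 20.1 as the mean of each cell's CPM. A UMI was found in 17.6% and 4.69% of mesothelial-like cells, and in 8.45% and 0% after thinning. With 1V209-Cho-Lip, 118 of the 295 UMIs lay in 1 cell. Interstitial macrophage-like cells showed 293 CPM (263 to 326) and 261 CPM (235 to 290.3), a ratio of 1.12 (0.96 to 1.31). With 1V209-Cho-Lip the order of these 5 classes was adventitial fibroblast, alveolar fibroblast, mesothelial, interstitial macrophage and AT2, and the intervals of the last pair overlapped. With PBS it was adventitial fibroblast, interstitial macrophage, alveolar fibroblast, AT2 and mesothelial, with no overlap between neighbours. Elsewhere, T-like cells were past the fold (56 and 35 UMIs, ratio 2.57), but 39 of the 1V209-Cho-Lip UMIs lay in 1 cell, and without the top cell of each library the ratio was 0.882. Smooth muscle or myofibroblast-like cells had 31 and 6 UMIs, a ratio of 3.03, or 4.69 without the top cells. NK-like cells were lower, with 3 and 17 UMIs and a ratio of 0.561, but 1.63 with clustering at resolution 1. The members measured in adventitial fibroblast-like cells were higher in 5 of 5 cases and none was lower, where 16.7% of all genes of that class were higher and 17.4% lower. In alveolar fibroblast-like cells 6 of 7 were higher (16.2% of all genes), in AT2-like cells 5 of 8 (11.4%) and in mesothelial-like cells 4 of 4 (18.9%). These counts include Cxcl2 and Cxcr2, with the S100a8-scaled levels described above.

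Most Cxcl1 in the PBS library lay outside the compared classes. A cluster led by Def8, Crabp2, Prl2c2 and Il1rl1, with 43 cells in the 1V209-Cho-Lip and 149 in the PBS library, had very high totals, at a median of 68963 and 51558 UMIs per cell. It held 5660 and 13132 Cxcl1 UMIs, that is 50.2% and 85.0% of each library's Cxcl1. Within it Cxcl1 stood at 2111 CPM (2056 to 2166) and 1830 CPM (1799 to 1862), a ratio of 1.15 (1.12 to 1.19), in a cluster where 12.0% of all genes were higher and 11.0% lower. Whether these are the K7M2 tumour cells was not tested. Without this cluster the whole-library ratio of Cxcl1 was 2.20, against 0.736 (0.72 to 0.75) with it, so that the direction of the whole-library value rests on the 43 and 149 cells.

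**Figure D3:**
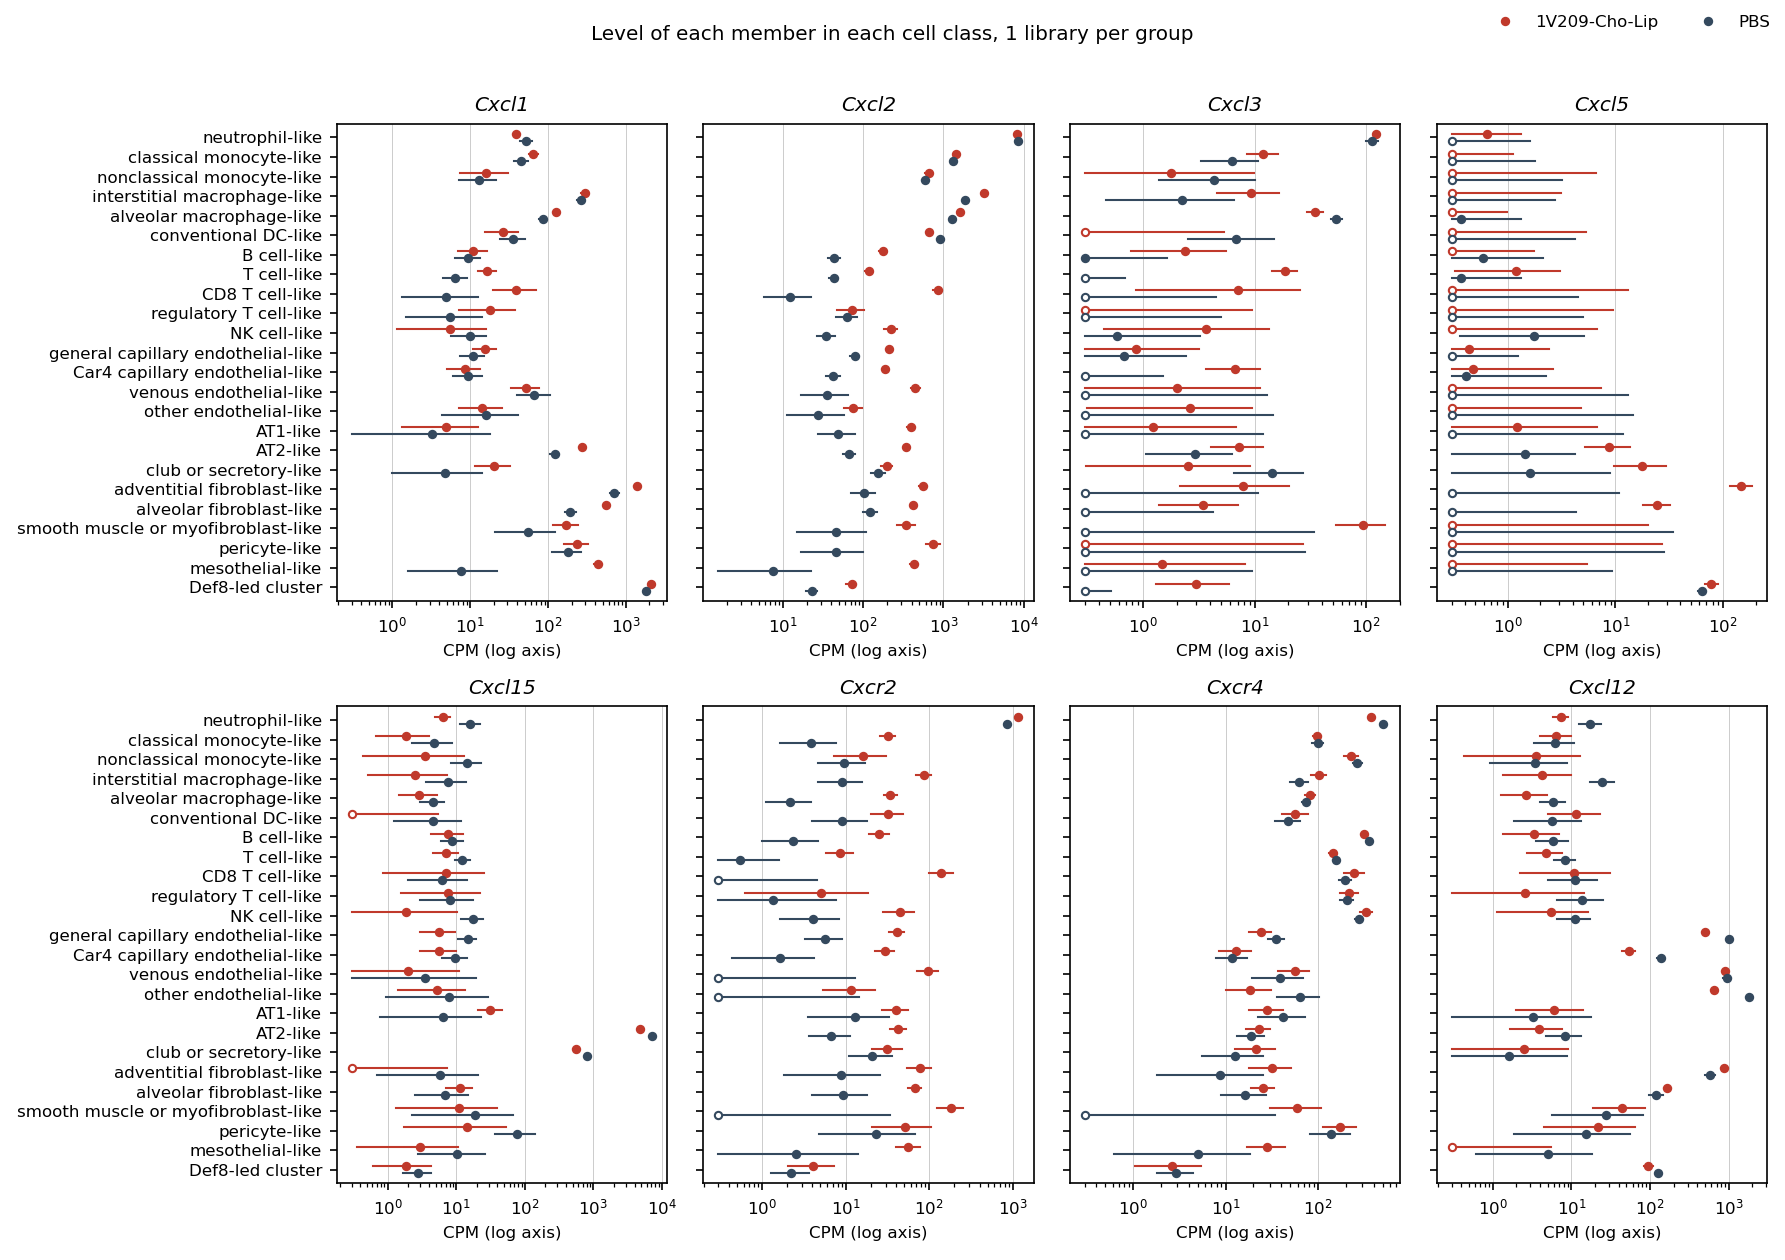
CPM (log axis) of each of the 8 members in the 23 cell classes and the Def8-led cluster, with the 1V209-Cho-Lip library drawn above the PBS library in each class, and 95% Poisson intervals; open circles at the left edge mark a count of 0, and intervals are clipped there. Cxcl2 is highest in neutrophil-like cells (8239.7 and 8551 CPM), Cxcl15 in AT2-like cells (4844 and 7086 CPM), and Cxcl1 in the Def8-led cluster (2111 and 1830 CPM), followed by adventitial fibroblast-like cells (1364 and 709.6 CPM).

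Cxcl2 encodes a Cxcr2 ligand that neutrophils and macrophages themselves release. Neutrophil-like cells held 75.5% of its UMIs in the 1V209-Cho-Lip and 52.7% in the PBS library, at 8239.7 CPM (8186 to 8294) and 8551 CPM (8432 to 8672), a ratio of 0.964 (0.95 to 0.98). At equal depth per cell the 2 libraries were close to each other as well. As measured, 4463 cells held 90168 Cxcl2 UMIs with 1V209-Cho-Lip and 1570 cells held 19612 with PBS, at median depths of 2272 and 1382.5 UMIs. Neither CPM nor thinned counts show a difference in total UMIs per cell. With cells thinned to 1000 UMIs, 83.3% of neutrophil-like cells in both libraries held a Cxcl2 UMI and the median was 6 UMIs in both, with quartiles of 1 and 12 in the 1V209-Cho-Lip and 2 and 13 in the PBS library. The tenth of cells with the most Cxcl2 held 33.7% and 34.1% of the transcript. The largest clusters of this class differed between the libraries: clusters 0 and 11 held 25.5% and 22.1% of the neutrophil-like cells with 1V209-Cho-Lip, and clusters 4 and 10 held 38.7% and 31.8% with PBS.

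Macrophages and monocytes were the next classes for Cxcl2. In interstitial macrophage-like cells it stood at 3214 CPM (3113 to 3317) with 1V209-Cho-Lip and 1843 CPM (1771 to 1918) with PBS, a ratio of 1.74 (1.66 to 1.83), 1.59 after subtraction of the S100a8-scaled level and 1.48 with another clustering seed. In that class 3 of 5 measured members were higher, where 13.9% of all genes were, and 1 was lower, where 9.84% of all genes were. Alveolar macrophage-like cells showed 1617 CPM (1577 to 1658) and 1278 CPM (1249 to 1308), a ratio of 1.26. Classical monocyte-like cells showed 1445 CPM (1404 to 1486) and 1331 CPM (1282 to 1382), a ratio of 1.09, and 0.912 after subtraction. Only interstitial macrophage-like cells passed the fold among these 3 classes. Conventional DC-like cells were lower within the fold, at 659 CPM (599.5 to 722) and 902 CPM (840.2 to 967), a ratio of 0.730. With PBS the intervals of the neighbours alveolar macrophage and classical monocyte-like cells overlapped, whereas with 1V209-Cho-Lip those of the 5 classes were all apart.

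In the other 18 classes Cxcl2 ranged over 71.9 to 853 CPM with 1V209-Cho-Lip and 7.61 to 588 CPM with PBS. For some of these classes the S100a8-scaled level is given beside the measured one. It is a computed amount, and whether neutrophil RNA makes up part of the signal was not tested. In AT2-like cells Cxcl2 stood at 346 and 66.0 CPM, a ratio of 5.24, with S100a8-scaled levels of 197 and 54.3 CPM. In B-like cells, which are not a known source, 19.2% and 5.02% of cells held a UMI, and the 175 and 43.3 CPM stood beside scaled levels of 111 and 56.3 CPM. In B-like cells the ratio was 4.04, and 5.05 without cells that carry S100a8 or S100a9. General capillary-like cells had a ratio of 2.67 as measured and turned direction after subtraction, at 0.215. Their ratio was 2.91 without cells that carry S100a8 or S100a9, 3.20 with per-cell gates and 1.56 with cluster shares set equal. Alveolar fibroblast-like cells, at 423 and 122 CPM, had a ratio of 3.46 as measured and 2.73 after subtraction, but 1.29 without cells that carry S100a8 or S100a9 and 1.44 with per-cell gates. CD8 T-like cells had the highest ratio, at 853 and 12.3 CPM in 60 and 259 cells, with scaled levels of 623 and 5.23 CPM. Over the 22 non-neutrophil classes, Cxcl2 was higher in 16 as measured, and in 9 of the 16 that kept a value after subtraction.

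Cxcl3 encodes a close relative of Cxcl1 and Cxcl2 in the mouse and was sparse. Neutrophil-like cells held 76.8% of its UMIs with 1V209-Cho-Lip and 41.1% with PBS, and alveolar macrophage-like cells held 7.54% and 46.8%. In neutrophil-like cells it stood at 123 CPM (116 to 130) and 113 CPM (95% interval up to 128), a ratio of 1.08 (0.95 to 1.24), and 7.73% and 5.92% of cells held a UMI, or 5.16% and 5.63% after thinning, against 0.699% and 0.0669% of B-like cells. In alveolar macrophage-like cells it stood at 34.8 CPM (29.1 to 41.3) and 53.9 CPM (47.9 to 60.4), a ratio of 0.646 (0.52 to 0.80), while Cxcl2 in the same cells had a ratio of 1.26. With each cell gated on its own markers in place of clusters, the Cxcl3 ratio in alveolar macrophage-like cells was 1.16, so its direction rests on how the class is drawn. In that class 3 of 7 measured members were lower, where 6.58% of all genes were, and 1 was higher, where 9.75% were. Classical monocyte-like cells had 39 and 13 UMIs, a ratio of 1.91 (1.00 to 3.89), 1.39 after subtraction and 4.25 with per-cell gates. T-like cells had 63 UMIs against none, 33.8-fold higher against a floor of 3 counts per library, but 60 of the 63 lay in 1 cell. Such a floor takes the 1V209-Cho-Lip count as exact, and the exact interval of this ratio, which covers both counts, begins at 26.7.

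Cxcl5, a Cxcr2 ligand known from mouse alveolar epithelium, was nearly absent from the classes compared. It had 8.24 CPM with 1V209-Cho-Lip and 10.3 CPM with PBS over all cells, a ratio of 0.796 (0.69 to 0.91), and 54.7% and 94.8% of its UMIs came from the Def8-led cluster. Within that cluster it stood at 77.6 CPM (67.4 to 88.9) and 63.5 CPM (57.9 to 69.7), a ratio of 1.22 (1.03 to 1.44). The whole-library ratio without the cluster was 6.23, and the counts behind it came from few cells. Adventitial fibroblast-like cells had 75 UMIs with 1V209-Cho-Lip, 73 of them in 1 cell, and none with PBS. That is 16.9-fold higher against the floor of 3 counts, or 8.76 CPM, with an exact interval from 13.4. Alveolar fibroblast-like cells had 49 UMIs with 1V209-Cho-Lip, 34 of them in 1 cell, and none with PBS. That is 6.98-fold higher against the same floor, with an exact interval from 5.47. AT2-like cells had 18 and 3 UMIs, a ratio of 6.03 (1.76 to 31.9), with 10 of the 18 in 1 cell and all 3 in 1 cell. In all 3 classes most of the 1V209-Cho-Lip counts thus came from 1 cell.

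Cxcl15, or lungkine, is made by lung epithelium and attracts neutrophils to the airspace. AT2-like cells held 93.2% of its UMIs with 1V209-Cho-Lip and 93.5% with PBS, at 4844 CPM (4749.6 to 4940) and 7086 CPM (6972 to 7201), a ratio of 0.684 (0.67 to 0.70), just inside the fold. Club or secretory-like cells, the secretory cells of the airways, showed 559 CPM (508 to 614) and 816 CPM (747 to 890.3), a ratio of 0.685 (0.60 to 0.78). Both lay close to the limit, and per-cell gates gave 0.639 in AT2-like and median-of-ratios scaling 0.614 in club or secretory-like cells, past the fold. The 2 epithelial classes thus gave nearly the same ratio from separate cells of the same libraries. Nearly all AT2-like cells held a UMI, 94.8% and 96.0%, and 86.2% and 94.01% after thinning. AT1-like cells had 26 and 2 UMIs, a ratio of 4.90 (1.23 to 42.6), in 1.29% and 2.20% of cells, but 24 of the 26 lay in 1 cell, and without the top cell of each library the ratio was 0.754. In neutrophil-like cells 1.30% and 2.23% held a Cxcl15 UMI, at a median of 2272 and 1382.5 UMIs per cell, and T-like cells showed 1.28% and 2.78%. Neither is a known source of this epithelial transcript, and the origin of these UMIs was not tested. The lower calls outside the epithelium, such as 0.397 in neutrophil-like cells and 0.576 in T-like cells, rest on such low shares of cells. In neutrophil-like cells 2 of 7 measured members were lower, Cxcl15 and Cxcl12, where 21.9% of all genes were, and none was higher, where 11.6% were.

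Cxcr2, the receptor for these ligands, was almost wholly a neutrophil transcript. Neutrophil-like cells held 87.2% of its UMIs in both libraries, at 1155 CPM (1135 to 1176) with 1V209-Cho-Lip and 861 CPM (823 to 899.5) with PBS, a ratio of 1.34 (1.28 to 1.41), or 1.49 with median-of-ratios scaling. A Cxcr2 UMI was found in 87.0% of neutrophil-like cells with 1V209-Cho-Lip and 64.8% with PBS, and in 65.5% and 52.9% after thinning, so the share was higher at equal depth as well. In AT2-like cells, which should lack the receptor, 11.8% and 2.88% of cells held a UMI, at a median of 9032 and 6614 UMIs per cell. Level and share of cells were thus both above PBS, the level within the fold. In the other classes it was higher wherever measured, by ratios such as 9.51 in interstitial macrophage-like cells, where its 85.5 and 8.99 CPM stood beside S100a8-scaled levels of 66.9 and 12.5 CPM. In venous endothelial-like cells there were 49 UMIs against none, 9.27-fold higher against the floor of 3 counts, with an exact interval from 7.26. The measured 97.5 CPM with 1V209-Cho-Lip stood beside scaled levels of 70.8 and 0.601 CPM. After subtraction only 3 of the 19 non-neutrophil classes kept a value in both libraries.

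Neutrophil-like cells formed clusters led by different genes, and the Cxcr2 ratio was above 1 in 7 of the 8 described here, the exception being cluster 23. Cluster 0, led by Cstdc4, Stfa2l1, Cstdc5 and S100a8, had 1134 CPM with 1V209-Cho-Lip and 927 CPM with PBS, a ratio of 1.22. Cluster 4, led by Il23a, Ccrl2, Entpd3 and Cass4, had 1029 and 838 CPM, a ratio of 1.23. Cluster 10, led by Ifitm1, Ccrl2, Gm13822 and Il1b, had 1075 and 841 CPM, a ratio of 1.28. These 3 clusters, which hold most PBS neutrophils, gave close ratios. Cluster 11, led by Slfn4, Steap4, Trim30b and Cxcr2, had 1251 and 927 CPM, a ratio of 1.35, and cluster 12, led by Antxr2, Gm26756, Lypd6b and Entpd1, had 1219 and 952 CPM, a ratio of 1.28. Cluster 20, led by Retnlg, Stfa2, Cstdc5 and Mmp8, had 1177 and 623 CPM, but from 578 cells against 22. Cluster 23, led by Csta3 and Il23a among others, had 825 and 943 CPM, a ratio of 0.88 from 36 and 42 cells. Granule-rich cells of cluster 44, led by Ngp, Camp, Ltf and Ly6g, which mark immature neutrophils, had 350.3 and 282 CPM, a ratio of 1.24.

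**Figure D4:**
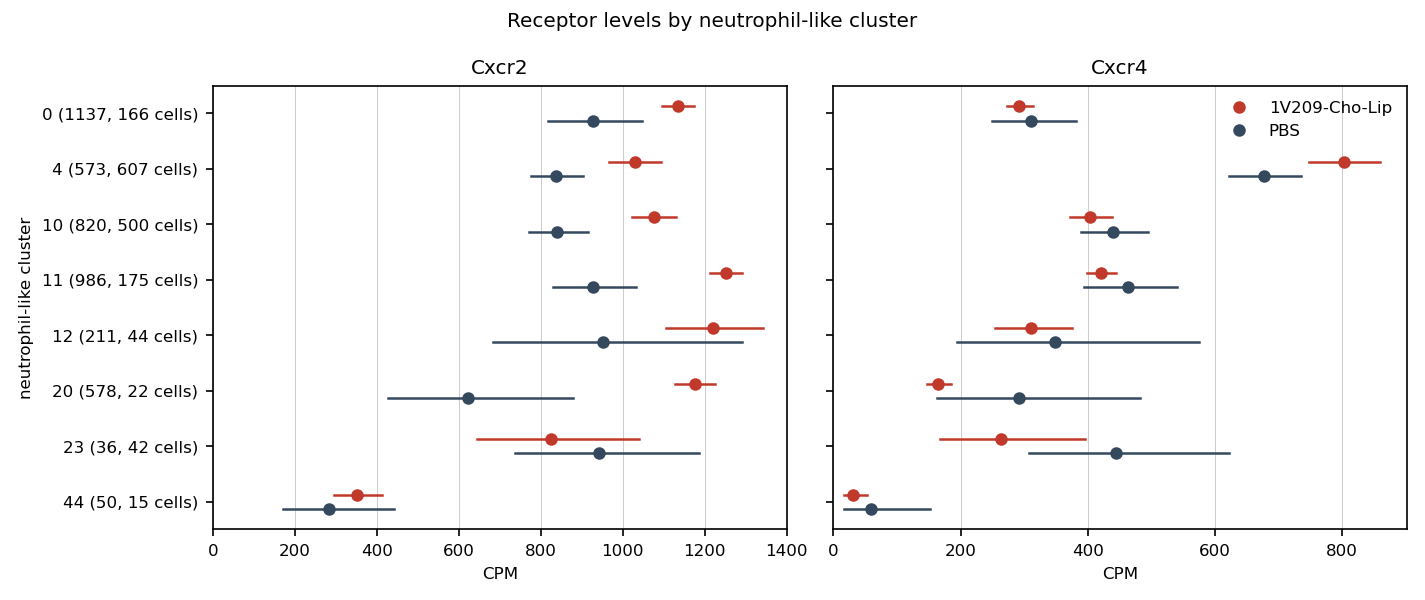
CPM of Cxcr2 and Cxcr4 in the neutrophil-like clusters described here, with the 1V209-Cho-Lip library above the PBS library and 95% Poisson intervals. Clusters 16.1, 16.2 and 37, which had few PBS cells, are not drawn. Among those drawn, Cxcr4 is highest in cluster 4 (802 and 677 CPM) and lowest in the granule-rich cluster 44 (31.2 and 59.4 CPM). Cxcr2 lies between 825 and 1251 CPM with 1V209-Cho-Lip in the drawn clusters other than 44.

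Cxcl12 encodes the ligand of Cxcr4 and was mostly an endothelial transcript. All endothelial-like cells together held 61.2% of its UMIs with 1V209-Cho-Lip and 69.6% with PBS. Fibroblast and mural-like cells held 22.1% and 5.41%, and the Def8-led cluster held 7.13% and 15.5%. Without that cluster the whole-library ratio was 0.606. General capillary-like cells had 492 CPM (464 to 521) with 1V209-Cho-Lip and 1012 CPM (976 to 1049) with PBS, a ratio of 0.486 (0.45 to 0.52). The share of these cells with a UMI was 32.7% and 55.9%, and 25.2% and 45.2% after thinning, against 0.979% and 1.07% of B-like cells. Here 2 of 6 measured members were lower, where 10.7% of all genes of the class were, and 2 were higher, where 14.6% were. The largest clusters of these cells were 18 and 2.1 with 1V209-Cho-Lip (22.0% and 18.5%) and 1.3 and 1.4 with PBS (30.1% and 28.5%), and with the cluster shares set equal the ratio was 0.581. By cluster, Cxcl12 stood at 119 and 406 CPM in cluster 18, at 552 and 1119 CPM in cluster 1.3 and at 855 and 1093 CPM in cluster 1.4. Cluster 2.1, at 684 and 696 CPM, was alone among the 8 general capillary clusters in showing a ratio near 1, of 0.98 (0.78 to 1.24).

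Car4 capillary-like cells, the thin cells of gas exchange, had less Cxcl12 per UMI, at 53.7 CPM (44.3 to 64.5) with 1V209-Cho-Lip and 137 CPM (122 to 152) with PBS, a ratio of 0.393 (0.32 to 0.49). Most of these UMIs came from small clusters that differed in size between the libraries. Cluster 41.2 held 83 and 37 of the 113 and 337 UMIs in 45 and 14 cells, cluster 41.3 held 4 and 142 in 2 and 49 cells, and cluster 41.4 held 0 and 57 in 0 and 25 cells. Cluster 24, the largest of the class with 444 and 546 cells, had 12.3 CPM with 1V209-Cho-Lip and 38.5 CPM with PBS, which is a ratio of 0.32 (0.17 to 0.55). In clusters 41.2, 41.3 and 41.4, 7 of 7 general capillary markers were raised too. Their median depth was 7056, 5489 and 5785 UMIs per cell, against 2809.5 in cluster 24. Whether they hold mixed cells was not tested, so the class CPM is not read as the level of Car4 capillary cells alone. Other endothelial-like cells had 652 CPM (597 to 712) and 1799.5 CPM (1638 to 1973), a ratio of 0.363 (0.32 to 0.41). All 3 classes were past the fold, but other endothelial-like cells were at 0.705 with clustering at resolution 1 and at 0.700 with another seed. Venous endothelial-like cells, through whose vessels leukocytes leave the blood, were within the fold at 891 CPM (811 to 978) and 957 CPM (847 to 1078), a ratio of 0.931 (0.80 to 1.09). Adventitial fibroblast-like cells had 881 CPM (802 to 967) and 578 CPM (501 to 665), a ratio of 1.52 (1.29 to 1.81), which was 1.39 without the top cell of each library and 1.11 as the mean of each cell's CPM. In these cells 70.1% with 1V209-Cho-Lip and 74.3% with PBS held a UMI, and 32.2% and 45.8% after thinning, so the share of cells did not follow the CPM and no order is read from it. Alveolar fibroblast-like cells had 166 CPM (149 to 185) and 120.1 CPM (98.1 to 145), a ratio of 1.38 (1.11 to 1.74), and 1.81 with per-cell gates. Ratios of capillary and fibroblast-like cells lay on opposite sides of 1, and their difference was not tested. With PBS the order was other endothelial, general capillary, venous and adventitial fibroblast, with the intervals of general capillary and venous cells overlapping, and with 1V209-Cho-Lip venous and adventitial fibroblast-like cells led with overlapping intervals.

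**Figure D5:**
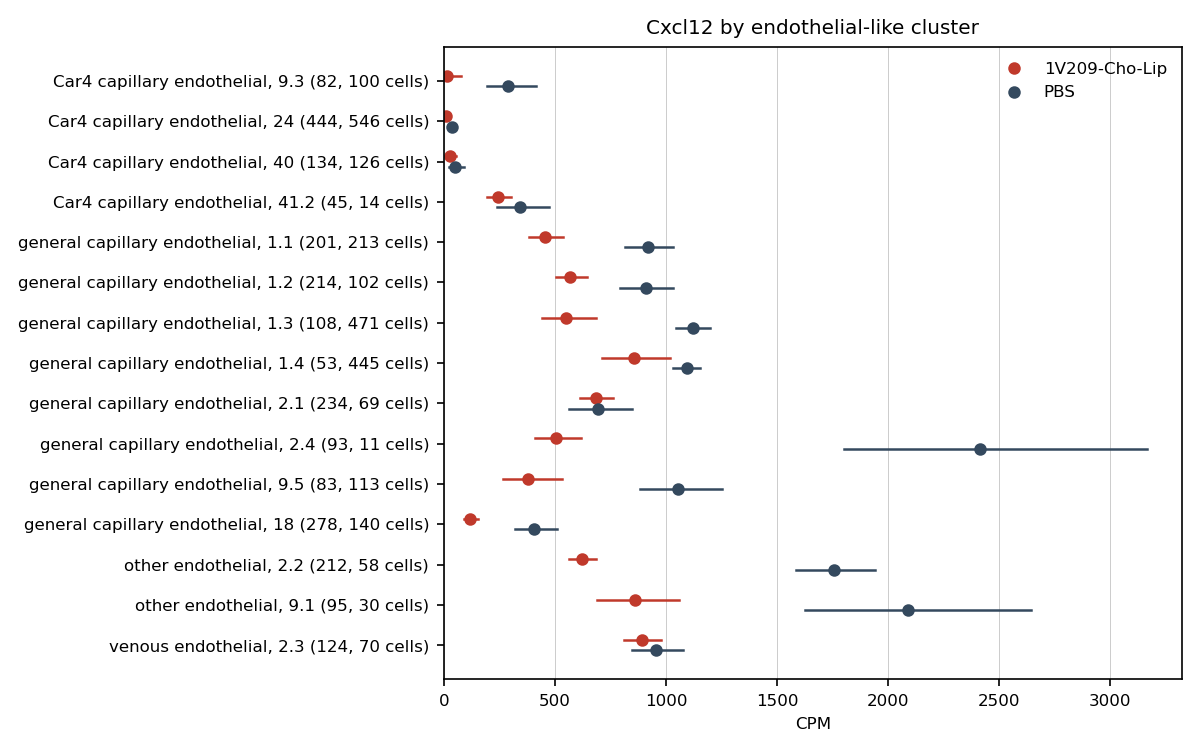
CPM of Cxcl12 in the endothelial-like clusters, with the 1V209-Cho-Lip library above the PBS library, 95% Poisson intervals, and the number of cells in the 1V209-Cho-Lip and then the PBS library beside each cluster. Clusters 41.3 and 41.4, with few or no 1V209-Cho-Lip cells, and lymphatic endothelial-like cells are not drawn. Levels with 1V209-Cho-Lip lie below PBS in cluster 1.3 (552 and 1119 CPM) and cluster 18 (119 and 406 CPM), and the intervals overlap in cluster 2.1 (684 and 696 CPM) and in the venous cells (891 and 957 CPM).

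Cxcr4, the receptor of Cxcl12, is carried by lymphocytes, monocytes and neutrophils, and its level on neutrophils is known to increase as they age. In neutrophil-like cells it stood at 371 CPM (360.0 to 383) with 1V209-Cho-Lip and 505 CPM (477 to 535) with PBS, a ratio of 0.735 (0.69 to 0.79), within the fold. This value moved with the make-up of the class. With each cluster given the same share in both libraries the ratio was 0.981. Cluster 4, which held 38.7% of PBS and 12.8% of 1V209-Cho-Lip neutrophil-like cells, had the highest Cxcr4, at 802 and 677 CPM, a ratio of 1.19 (1.06 to 1.32). Cluster 0 had 293 and 310.2 CPM, cluster 10 had 404 and 439 CPM, and cluster 11 had 421 and 463 CPM. In these 3 clusters the ratios were 0.94, 0.92 and 0.91. The share of neutrophil-like cells with a Cxcr4 UMI was 48.6% with 1V209-Cho-Lip and 42.9% with PBS, but 29.7% and 34.4% after thinning, so the order of the unthinned shares goes against the CPM and is not read. In AT2-like cells, which are no known source, the unthinned shares were 12.7% and 10.8%.

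B-like cells had 316 CPM (292 to 341) and 359 CPM (339 to 379) of Cxcr4, a ratio of 0.880, and NK-like cells had 333 CPM (286 to 385) and 279 CPM (254 to 305), a ratio of 1.19. Nonclassical monocyte-like cells had 228 CPM (190.3 to 271) and 267 CPM (238 to 298), a ratio of 0.855, and CD8 T-like cells had 245 CPM (191 to 310.4) and 197 CPM (167 to 229), a ratio of 1.25. All of these were within the fold. With 1V209-Cho-Lip the intervals of every neighbouring pair in the order neutrophil, NK, B, CD8 T and nonclassical monocyte overlapped, and with PBS those of NK and nonclassical monocyte-like cells did. Interstitial macrophage-like cells were past the fold at 102 CPM (84.9 to 122) and 62.9 CPM (50.2 to 77.9), a ratio of 1.62 (1.22 to 2.17), but 1.45 after subtraction of the S100a8-scaled level and 1.33 with per-cell gates. Of the 20 non-neutrophil classes 4 were higher as measured and none of the 18 that kept a value was higher after subtraction, where 4 were lower. Neutrophil-like cells held 56.2% of all Cxcr4 UMIs with 1V209-Cho-Lip and 20.3% with PBS, whereas lymphoid-like cells held 20.9% and 51.1%.

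The 2 receptors were set beside each other in single neutrophil-like cells thinned to 1000 UMIs, of which 4324 remained with 1V209-Cho-Lip and 1314 with PBS. Both receptors were detected in 19.2% (18.1 to 20.4) and 18.4% (16.4 to 20.6) of cells, and Cxcr2 alone in 46.3% (44.8 to 47.8) and 34.5% (31.9 to 37.1). Cxcr4 alone was found in 10.4% (9.53 to 11.4) and 15.98% (14.04 to 18.1), and neither in 24.1% and 31.1%. The share with both receptors was thus close in the 2 libraries, and the other 3 shares were not. Cxcr4 was found in 29.4% of Cxcr2-positive and 30.2% of Cxcr2-negative cells with 1V209-Cho-Lip, and in 34.8% and 33.9% with PBS, so within each library detection of one receptor was nearly the same with and without the other.

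Other genes of the axis were described by lists, each beside all genes of the same cells. Among 15 other CXC ligands and receptors, 4 were higher and 4 lower over all cells (14.0% and 20.2% of all genes), with a median log2 ratio of 0.01 against -0.20 for all genes. Cxcl14, a ligand of fibroblasts and epithelium, had the highest ratio, 5.80 (47.0 and 8.09 CPM), and Cxcr3, the receptor of interferon-induced chemokines on T cells, the lowest, 0.458 (7.37 and 16.1 CPM). In neutrophil-like cells 5 of 11 measured were higher and 4 lower (11.6% and 21.9% of all genes), with a median of -0.11 against -0.15. Cxcr1, the other neutrophil receptor for such ligands, had 35.4 and 8.28 CPM there, a ratio of 4.27 from 387 and 19 UMIs. Ccrl2, an atypical receptor that binds chemerin, had 1415 and 2944 CPM, a ratio of 0.481. It is among the leading genes of cluster 4, the largest neutrophil-like cluster of the PBS library.

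Among 13 upstream inducers, 5 were higher and 1 lower over all cells (14.0% and 20.2% of all genes), with a median log2 ratio of 0.45. Il1b, a cytokine that induces Cxcl1 and Cxcl2, had 6306 and 1650.1 CPM over all cells, a ratio of 3.82, but 21799 and 23503 CPM in neutrophil-like cells, a ratio of 0.928. Like Cxcl2, it was higher over all cells and within the fold in neutrophils. Csf3, which mobilizes neutrophils, had 60 and 14 UMIs, a ratio of 4.32, and Csf2 had 120 and 474, a ratio of 0.255. Within neutrophil-like cells none of 11 was higher and 3 were lower, where 11.6% and 21.9% of all genes were.

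Of 14 NF-kB and mRNA-stability regulators, 3 were higher and none lower over all cells (median 0.23; 14.0% and 20.2% of all genes). In alveolar fibroblast-like cells 9 of 14 were higher, where 16.2% of all genes were, and none lower (median 0.77 against -0.03 for all genes). In general capillary-like cells 7 of 14 were higher, where 14.6% of all genes were (median 0.68 against -0.03), and in interstitial macrophage-like cells 4 of 13, where 13.9% were (0.41 against 0.01). In neutrophil-like cells 2 of 13 were higher and 2 lower (median -0.26 against -0.15), where 11.6% and 21.9% of all genes were. Nfkbia, the inhibitor of NF-kB, was at 1622 and 2408 CPM in these cells, a ratio of 0.674. Zfp36l1, whose product promotes decay of mRNAs with AU-rich elements, had 139 and 45.4 CPM there, a ratio of 3.07. S100a8-scaled counts were not subtracted from these lists, and their part in the values was not tested.

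Among 22 signalling and desensitization genes of the receptors, 4 were higher and 1 lower over all cells (median 0.18). The higher count is near the 14.0% of all genes that were higher, and 20.2% of all genes were lower. In neutrophil-like cells none of 21 was higher and 2 were lower (median -0.05), where 11.6% and 21.9% of all genes were. Arrb1, an arrestin that uncouples receptors, was lower at 18.2 and 39.2 CPM, a ratio of 0.463, while Arrb2 had 212 and 141 CPM, a ratio of 1.497 just under the fold. Among 15 adhesion and ageing genes, 9 were higher and 1 lower over all cells (median 0.67; 14.0% and 20.2% of all genes). In neutrophil-like cells 1 of 13 was higher and 2 lower (median -0.04), near or below the 11.6% and 21.9% of all genes. C5ar1, the complement C5a receptor, had 413 and 104 CPM over all cells, a ratio of 3.98, and 1382 and 1241 CPM in neutrophil-like cells, a ratio of 1.11. Ltb4r1, the leukotriene B4 receptor, was the 1 higher gene in neutrophil-like cells, at 79.6 and 32.3 CPM, a ratio of 2.47. Higher counts in other classes were not particular to the NF-kB list. In alveolar fibroblast-like cells 5 of 8 upstream inducers were higher (16.2% of all genes). In general capillary-like cells 6 of 11 adhesion and ageing genes and 9 of 22 signalling genes were higher (14.6% of all genes). In interstitial macrophage-like cells 6 of 14 adhesion and ageing genes were higher, but 1 of 22 signalling genes (13.9% of all genes). In each of these, at most 1 gene was lower.

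The genes with the most similar pattern were found by Pearson's r of log2(CPM + 1) over the 46 class sums of both libraries, as a description, since the points share libraries and depth. For Cxcl2 these were Cd14 (r = 0.943), Nlrp3 (0.936) and Il1rn (0.927). For Cxcr2 they were S100a9 (0.967), S100a8 (0.960) and Dhrs9 (0.943), and for Cxcl3 they were Cxcr1 (0.820), C5ar2 (0.777) and Cd300lf (0.766). The neutrophil-rich members thus lay nearest to myeloid genes. For Cxcl15 they were Rnf186 (0.931), Sftpd (0.905) and Urah (0.890), and for Cxcl12 they were Akap12 (0.893), Msx1 (0.877) and Jcad (0.875). Cxcr4 lay nearest to Akna (0.860), Gmip (0.830) and Arhgap45 (0.829). For Cxcl1 the nearest were Cd302 (0.838), Mt1 (0.793) and Mt2 (0.763), and for Cxcl5 they were Tspan11 (0.625), Ngef (0.595) and Col23a1 (0.584), the weakest likeness of the 8.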

How the data were processed

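Lung cells of 2 groups of mice were measured with 10x Chromium single-cell RNA sequencing, 1 library of 3 pooled mice per group, sequenced on an Illumina NovaSeq per the series description. The deposited matrices hold raw counts of UMIs per gene and barcode, made with Cell Ranger 9.0.1 per the file headers and mm10 per the submitters' processing notes. Which annotation release they used is not stated in the sources used here. The labels' protocol also names a total RNA kit; the matrices were used as single-cell counts.

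Cells with fewer than 500 UMIs, fewer than 200 genes or over 20% mitochondrial UMIs were left out. Doublets were called per library with Scrublet in Scanpy (expected rate 0.8% per 1000 barcodes) and left out: 1455 (10.6%) in the 1V209-Cho-Lip and 1906 (13.0%) in the PBS library. Cells were clustered on 2779 variable genes without the members (30 components, 15 neighbours, Leiden resolution 2), giving 52 clusters, some divided at resolution 0.5. A cluster was named where at least 3 markers and 50% of a type's markers were raised, and 541 (4.41%) and 499 (3.94%) cells stayed mixed or unnamed. The naming thresholds were set after clusters had been seen. UMIs were summed per class and scaled to CPM; classes needed 50 cells in each library and pairs 20 UMIs. Thinning to 1000 UMIs left out 952 and 1357 cells. Against a library with 0 counts, 3 counts were assumed. The fold so computed is not a lower bound, since the exact interval given beside it begins below it.

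The members and lists were chosen with earlier results of these data known. Each member is described in full in up to 5 classes with its highest CPM, and in each list the 4 genes of most UMIs and both extremes of the ratio could be named, of which some are. Other classes and clusters outside the compared classes were chosen after their values were seen. Alternatives covered doublets, filters, scaling, clustering, gating, subtraction of S100a8-scaled counts, and sums without the Def8-led cluster or the top cell, the last 2 and equal cluster shares being added after seeing the data. Computation was tested on simulated data. Analyses used Scanpy 1.11.5 with igraph 0.11.9 and scikit-learn 1.9.0, scipy 1.17.1, numpy 2.4.6 and pandas 2.3.3 under Python 3.11.15, matplotlib 3.10.9, and edgeR 4.0.16 under R 4.3.3 for TMM factors only.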

Additional observations from a re-analysis of the deposited data

Results flagged for a closer look

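Cxcl12 ratios of 1V209-Cho-Lip over PBS lay past the fold on both sides of 1. The ratio was 1.52 in adventitial fibroblast-like cells, but 1.39, within the fold, without the top cell of each library, and the thinned share of cells with a UMI there was 32.2% with 1V209-Cho-Lip and 45.8% with PBS. It was 0.363 in other endothelial-like, 0.393 in Car4 capillary-like and 0.486 in general capillary-like cells. It was also below the fold in cells with few Cxcl12 counts, at 0.170 in interstitial macrophage-like, 0.419 in neutrophil-like and 0.452 in alveolar macrophage-like cells. With per-cell gates it was 0.710 in interstitial and 0.834 in alveolar macrophage-like cells, both within the fold, and 19 of the 33 PBS UMIs in interstitial macrophage-like cells lay in 1 cell. With 1 library per group the difference between classes was not tested.

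Signal also appeared in cells outside the compared classes. In the 1V209-Cho-Lip library, Cxcl2 stood at 10647 CPM in cluster 17.1, and Cxcr2 at 1117 CPM in cluster 17.2 and 1281 CPM in cluster 17.3, clusters that carry both neutrophil and platelet genes. Cluster 26.1, led by Prg4, Alox15, Serpinb2 and Saa3, with 30 cells in the 1V209-Cho-Lip and 1 in the PBS library, had 2722 CPM of Cxcl1 and 10160.0 CPM of Cxcl2. The Def8-led cluster had 2111 CPM of Cxcl1 and 77.6 CPM of Cxcl5 with 1V209-Cho-Lip.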

How the results depend on the processing

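Whole-library ratios (1V209-Cho-Lip over PBS) moved with the cells included. With called doublets kept they were 0.702 (Cxcl1), 3.15 (Cxcl2), 6.16 (Cxcr2) and 0.584 (Cxcl12), and with stricter cell filters 3.36 (Cxcl2) and 6.89 (Cxcr2). Median-of-ratios and TMM scaling gave 0.842 and 0.835 (Cxcl1), 3.71 and 3.68 (Cxcl2), 3.19 and 3.16 (Cxcl3), 0.789 and 0.782 (Cxcl15), 7.40 and 7.33 (Cxcr2), 1.46 and 1.45 (Cxcr4), and 0.703 and 0.697 (Cxcl12). The mean of each cell's CPM gave 1.30 (Cxcl1), 2.55 (Cxcl2), 1.85 (Cxcl5), 0.588 (Cxcl15), 3.97 (Cxcr2), 1.11 (Cxcr4) and 0.556 (Cxcl12). Without neutrophil-like cells they were 0.898 (Cxcl1), 2.09 (Cxcl2), 1.36 (Cxcl3), 0.985 (Cxcl5), 0.864 (Cxcl15), 8.03 (Cxcr2), 0.882 (Cxcr4) and 0.761 (Cxcl12). Equal class shares gave 1.32 (Cxcl1), 1.13 (Cxcl2), 1.15 (Cxcl3), 1.58 (Cxcl5), 1.56 (Cxcr2), 0.890 (Cxcr4) and 0.581 (Cxcl12). Without the Def8-led cluster they were 2.20 (Cxcl1), 2.92 (Cxcl2), 2.49 (Cxcl3), 6.23 (Cxcl5), 0.619 (Cxcl15), 5.84 (Cxcr2) and 1.15 (Cxcr4).

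Of 1085 class ratios recomputed, 928 stayed within the counting interval of the reported ratio, 143 moved outside it and 14 were counted as turned in direction. A call could change within that interval, as for Cxcl12 in adventitial fibroblast-like cells (1.52, and 1.39 without the top cells). Turns were counted only where the reported ratio was past the fold. Ratios within the fold could also cross 1, as for Cxcl2 in classical monocyte-like cells (1.09, and 0.912 after subtraction). Counted as turned with doublets kept were Cxcl12 in NK (1.03), Cxcl15 in T (1.70) and Cxcl15 in alveolar fibroblast-like cells (0.603, mean of cells 0.994). With per-cell gates they were Cxcl3 in alveolar macrophage (1.16), and Cxcr4 in alveolar fibroblast (0.939) and club or secretory-like cells (0.862). Subtraction of S100a8-scaled counts turned Cxcl2 in general capillary (0.215) and Cxcr4 in alveolar fibroblast-like cells (0.989). Leaving out cells with S100a8 or S100a9 turned Cxcl15 in Car4 capillary (1.54) and Cxcl1 in T-like cells (0.356; without the top cell 0.882). Clustering at resolution 1 gave 1.63 for Cxcl1 in NK, and another seed 1.08 for Cxcr4 in other endothelial-like cells. The causes were not tested.

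The 54 higher of 115 pairs became 35 of 77 with a minimum of 50 UMIs and 22 of 79 after subtraction. The 19 lower of 115 pairs became 11 of 115 at a fold of 2, 9 of 77 at 50 UMIs and 12 of 74 where the interval excluded 1. Of the calls, 79.5% were higher at 50 UMIs and 74.0% as reported. Shares over all genes were not computed under these settings. No paired analysis was possible because each group was 1 library. Cxcl3 and Cxcl5 had the fewest UMIs of the members in both libraries, and single cells held most of their counts in several classes. Whether depth limits them was not tested.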
